A study of Mus musculus with 6 samples.

Results

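The inhibitors of cyclin-dependent kinases are 7 genes: the Cip and Kip members Cdkn1a (p21), Cdkn1b (p27) and Cdkn1c (p57), and the INK4 members Cdkn2a (p16, with the ARF protein from the same gene), Cdkn2b (p15), Cdkn2c (p18) and Cdkn2d (p19). They were chosen by gene symbol in the platform's probe annotation, and all 7 were measured, by 1 probe set each out of 22206 gene probe sets. RNA was measured on 6 Affymetrix Clariom S arrays from lines derived from melan-a, immortalized mouse melanocytes of the C57BL/6J strain, grown without treatment in RPMI with serum. The line mKitK641E(T), called T here, and the line mKitK641E(PT), called PT, carry by their labels Kit with the activating K641E substitution and are labelled as melanoma. The line mVec carries a control vector (CD516B2 in the titles) and is labelled as melanocytes. The Kit probe set was at background on all 6 arrays, and its values are given below with the melanocyte markers. Each group has 2 arrays of 1 line, so errors and p-values reflect array-to-array spread within a line, which may be technical; the labels do not say that arrays came from separate cultures. The titles add C3# for T and hi exp for PT, with no explanation in the sources used here.

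Cyclin-dependent kinases drive the cell cycle when bound to a cyclin. The INK4 proteins bind Cdk4 and Cdk6 and keep them from the D cyclins, whereas the Cip and Kip proteins bind complexes of cyclin E or cyclin A with Cdk2 and block them. When the kinases are active they phosphorylate Rb and release E2F factors, which switch on genes of DNA replication. The ARF protein, read from another frame of Cdkn2a, holds back Mdm2 and so protects p53, and p53 in turn is the best known activator of Cdkn1a. In melanocytes, the Cdkn2a locus is known for its role in the arrest of naevi and for its loss in melanoma.

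Promoter windows are printed here for Cdkn1b, Cdkn2b and Cdkn2c, which were lower in both Kit lines, and for Cdkn1a, which was not. Cdkn2d was also called lower in both, with signals at background, and its window is not printed. RefSeq (GRCm38.p6) gave windows of 300 bases, from 250 before to 50 after a start site, for 6 of the 7 members. Capitals mark matches to a searched motif.
Cdkn2c (chr4:109666707-109667006, minus strand): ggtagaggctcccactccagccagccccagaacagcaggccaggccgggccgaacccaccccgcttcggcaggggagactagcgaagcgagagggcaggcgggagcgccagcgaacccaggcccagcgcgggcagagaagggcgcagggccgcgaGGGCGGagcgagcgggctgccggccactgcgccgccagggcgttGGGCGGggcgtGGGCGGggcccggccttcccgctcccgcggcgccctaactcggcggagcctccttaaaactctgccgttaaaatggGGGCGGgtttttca
Cdkn1b (chr6:134920151-134920450, plus strand): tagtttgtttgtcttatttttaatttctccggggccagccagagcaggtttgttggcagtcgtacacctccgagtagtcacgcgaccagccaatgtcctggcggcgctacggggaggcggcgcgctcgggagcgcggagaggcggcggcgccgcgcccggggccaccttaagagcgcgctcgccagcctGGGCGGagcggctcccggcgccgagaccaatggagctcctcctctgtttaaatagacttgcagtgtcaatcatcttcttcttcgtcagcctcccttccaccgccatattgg
Cdkn2b (chr4:89310983-89311282, minus strand): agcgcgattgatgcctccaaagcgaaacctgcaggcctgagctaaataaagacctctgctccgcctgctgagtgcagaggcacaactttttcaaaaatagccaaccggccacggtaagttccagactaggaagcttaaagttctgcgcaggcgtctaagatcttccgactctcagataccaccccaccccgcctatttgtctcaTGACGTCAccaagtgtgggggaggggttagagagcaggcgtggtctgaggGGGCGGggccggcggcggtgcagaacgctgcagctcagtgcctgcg
Cdkn1a, upstream start (chr17:29090729-29091028, plus strand): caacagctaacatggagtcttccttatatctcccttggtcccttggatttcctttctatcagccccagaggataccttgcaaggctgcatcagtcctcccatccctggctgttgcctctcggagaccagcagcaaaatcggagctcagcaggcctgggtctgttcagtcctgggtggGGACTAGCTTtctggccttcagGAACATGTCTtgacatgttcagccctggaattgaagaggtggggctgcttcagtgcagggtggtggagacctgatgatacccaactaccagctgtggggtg
Cdkn1a, downstream start (chr17:29093519-29093818, plus strand): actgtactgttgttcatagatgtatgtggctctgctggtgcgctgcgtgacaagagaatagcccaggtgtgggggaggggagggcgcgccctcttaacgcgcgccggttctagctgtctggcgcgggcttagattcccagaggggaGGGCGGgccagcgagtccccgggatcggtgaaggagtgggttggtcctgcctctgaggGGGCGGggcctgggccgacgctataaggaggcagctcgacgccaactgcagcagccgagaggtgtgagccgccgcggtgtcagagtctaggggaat
The motifs searched on both strands were the GC box GGGCGG, the E2F site as TTTCCCGC, TTTGGCGC, TTTCGCGC or TTTGCCGC, the FOXO site GTAAACA, the E-box CACGTG, the cAMP response element TGACGTCA, the AP-1 site TGANTCA and the p53 decamer by its consensus, and the TATA box TATAAA on the gene's strand. The printed Cdkn2c window held 4 GC boxes, the Cdkn1b window and the Cdkn2b window 1 each, and the window of the downstream Cdkn1a start 2. Cdkn2c has another RefSeq window, not printed, with 0 GC boxes and 1 E-box, and an E-box stood in 7.15% of all windows. A GC box stood in 35.7% of all 32851 windows, so it is a common match. The Cdkn2b window also held the cAMP response element, which 1.79% of windows contain. The window of the upstream Cdkn1a start held 2 p53 decamers, beginning 73 and 51 bases before the start site, and 8.36% of windows hold at least 1. The Cdkn2d window held 1 p53 decamer and 5 GC boxes, so the decamer was not particular to Cdkn1a. Cdkn2a, which was not called in T or PT against mVec, has a window with 1 GC box. Another Cdkn2a window held 3 GC boxes and 1 E2F site, which 2.26% of windows contain, and neither is printed. No FOXO, AP-1, E2F or TATA match was in the printed windows, and this says only that these letters are not there.

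Of the 7 inhibitors, 3 were above background on both T arrays and 2 on both PT arrays, against 5 on both mVec arrays. The background limit of an array is the level that 95% of its 5222 negative-control probe sets stay at or under, here between 8.74 and 9.16 on the log2 scale. Of all gene probe sets, 31.1% and 32.6% passed the limit on the T arrays, 29.0% and 31.1% on the PT arrays, and 31.4% and 31.7% on the mVec arrays. Cdkn1a and Cdkn2a were above it on every array. Cdkn1c and Cdkn2d were not above it on any array. The count depends on this limit: with a limit at 90% of them, 5 passed in T, 4 in PT and 6 in mVec. With a limit at 99%, which lies at 12.15 to 13.07, 1 passed in T, 1 in PT and 2 in mVec. A group is called at background here when neither of its arrays passes its limit, and a fold against such a group is given as a lower bound against the limit.

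**Figure D1:**
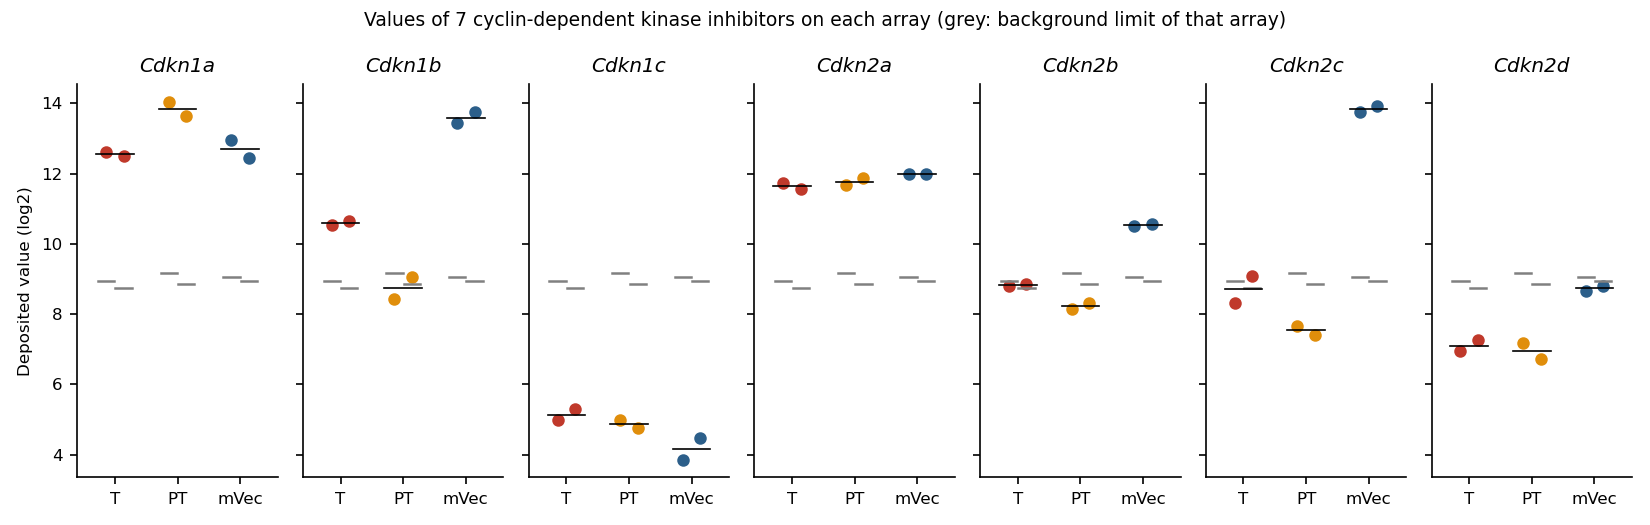
Deposited log2 values of the 7 inhibitors on each of the 6 arrays, with points for arrays, black lines for group means and grey ticks for the background limit of each array. Cdkn2c and Cdkn1b stand at 10.65 or less on all T and PT arrays, against 13.43 or more on both mVec arrays, while Cdkn2a lies between 11.56 and 11.99 throughout.

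Cdkn2c, the INK4 inhibitor p18, showed the largest differences among the members. The T arrays read 8.32 and 9.09 on the log2 scale, the PT arrays 7.66 and 7.41, and the mVec arrays 13.74 and 13.92. All 4 Kit arrays were far below both mVec arrays, and of the Kit arrays only T replicate 2 passed its background limit. Cdkn2c fell by 5.13 ± 0.27 in T (SE of the limma fit, adjusted p = 7.03e-07), a 34.9-fold lower measured level than in mVec, with the T mean of 8.71 itself under both T limits (8.93 and 8.74). It fell by 6.30 ± 0.27 in PT (limma adjusted p = 1.4e-07), at least 28.2-fold, because PT was at background. The measured fold in T and the bound in PT have no order. Of all gene probe sets, 0.811% had a lower difference than Cdkn2c in T and 0.576% in PT.

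Cdkn1b, the Kip inhibitor p27 that holds cyclin E and cyclin A kinases inactive in resting cells, was the other member with a large fall. Its log2 levels were 10.54 and 10.65 on the T arrays, 8.42 and 9.06 on the PT arrays, and 13.43 and 13.76 on the mVec arrays. The 3 groups did not overlap, with T between PT and mVec, and 1 of the PT arrays was under its limit. It fell by 3.0 ± 0.26 in T, a 7.99-fold lower level (limma adjusted p = 1.35e-05), and in PT the log2 difference was -4.85 ± 0.26, a 28.9-fold lower measured level (adjusted p = 4.52e-07), with the PT mean of 8.74 under both PT limits (9.16 and 8.86).

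Cdkn2b encodes p15, the INK4 inhibitor known as a target of TGF-beta. The T arrays gave log2 levels of 8.81 and 8.87, the PT arrays 8.14 and 8.31, and the mVec arrays 10.50 and 10.57. It was clearly above background only in mVec, with 1 T array just over its limit. The T line was 3.25-fold lower (log2 difference -1.70 ± 0.20, limma adjusted p = 0.000106), and the PT line at least 2.87-fold lower (-2.31 ± 0.20, adjusted p = 9.78e-06).

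Cdkn2a gave a different picture from its neighbour Cdkn2b. Log2 levels were 11.73 and 11.56 on the T arrays, 11.66 and 11.88 on the PT arrays, and 11.99 on each mVec array. The mVec arrays were the highest, but the differences of -0.34 ± 0.20 in T (limma adjusted p = 0.259, interval at 95% from -0.80 to 0.12) and -0.22 ± 0.20 in PT (adjusted p = 0.480, interval from -0.68 to 0.24) did not pass the test. The probe set carries accessions of both Cdkn2a transcripts, so the p16 and ARF messages are not separated by these values.

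Cdkn1a, the p21 inhibitor and main p53 target, rose in PT and did not pass in T. It read 12.60 and 12.52 (log2) on the T arrays, 14.03 and 13.63 on the PT arrays, and 12.94 and 12.43 on the mVec arrays. Both PT arrays were above all others, and the T values lay within the mVec range on this scale. PT was 2.21-fold higher than mVec (log2 difference 1.14 ± 0.25, limma adjusted p = 0.00433), a call that ended when mVec replicate 2 was left out (adjusted p = 0.0505, from 0.000318 to 0.0505 in all alternatives). T differed from mVec by -0.13 ± 0.25 (adjusted p = 0.768, interval at 95% from -0.68 to 0.42).

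The remaining members were at background in every group, so no fold is given for them. Cdkn2d, the INK4 inhibitor p19, read 6.95 and 7.25 (log2) on the T arrays, 7.18 and 6.71 on the PT arrays, and 8.66 and 8.80 on the mVec arrays. It was called lower in T (-1.63 ± 0.24, limma adjusted p = 0.000417) and in PT (-1.79 ± 0.24, adjusted p = 0.000185). Cdkn1c, the imprinted inhibitor p57, read 4.98 and 5.29 (log2) on the T arrays, 5.0 and 4.76 on the PT arrays, and 3.86 and 4.49 on the mVec arrays. It was called higher in T (0.96 ± 0.26, limma adjusted p = 0.0165) but not in PT (0.71 ± 0.26, adjusted p = 0.0606). Leaving out T replicate 2 (limma adjusted p = 0.100) or mVec replicate 1 (0.159) ended the T call, and the adjusted p ran from 0.00494 to 0.159 over the alternatives.

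In the comparison of T with mVec, 4 of the 7 inhibitors fell and 1 rose, beside 15.5% of all gene probe sets called lower and 16.9% called higher (32.4% in either direction). The median of their differences was -1.63, against 0.01 over all probe sets. In PT, again 4 fell and 1 rose, beside 18% of probe sets called lower and 17.9% called higher (35.9% in either direction), with a median of -1.79 against 0.08. The 4 that fell were Cdkn1b, Cdkn2b, Cdkn2c and Cdkn2d in each line, and the risen gene was Cdkn1c in T and Cdkn1a in PT. At background in both lines compared were 2 of the T calls (Cdkn1c and Cdkn2d) and 1 of the PT calls (Cdkn2d). Both comparisons share the mVec arrays and are not independent. Centring each array on its median raised every difference against mVec by 0.18 in T and 0.19 in PT. After that centring 62.3% of all calls were higher in T, against 52.3% as deposited, and 60.3% were higher in PT, against 49.9%.

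**Figure D2:**
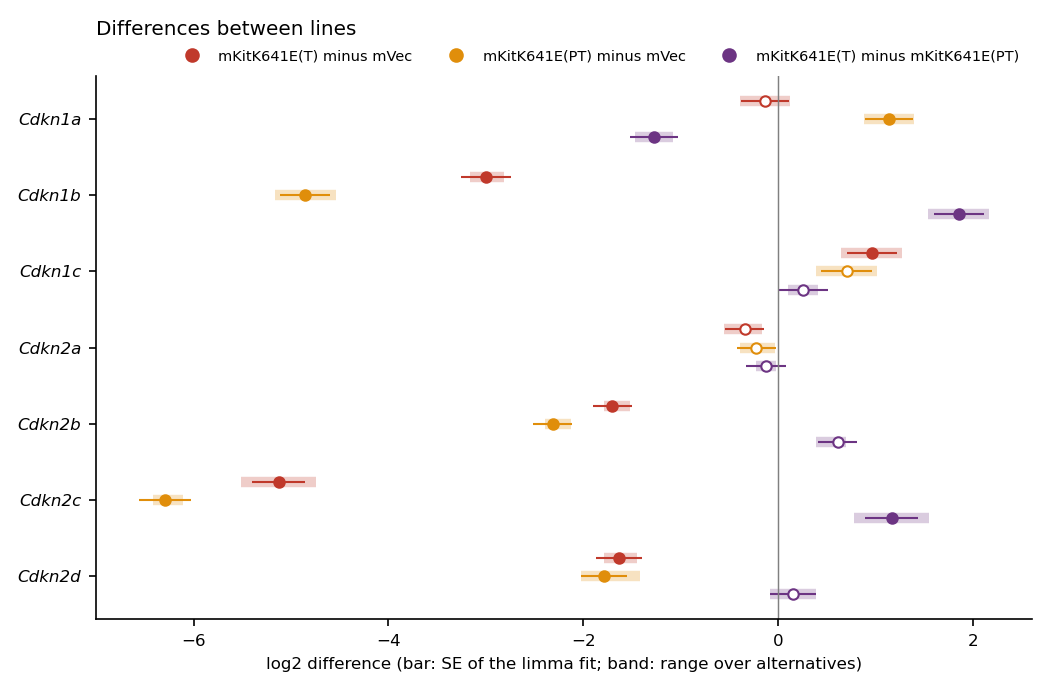
Log2 differences of each inhibitor in the 3 comparisons, with bars for the standard error of the limma fit, filled points for an adjusted p under 0.05 and shaded bands for the range over the alternatives. The falls of Cdkn1b, Cdkn2b, Cdkn2c and Cdkn2d against mVec stay below -1.4 in every alternative that was run, and Cdkn2a lies near 0.

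The comparison of T with PT asks where the Kit lines differ. Cdkn1b was 3.62-fold higher in T than in PT (log2 difference 1.86 ± 0.26, limma adjusted p = 0.00347), and the T arrays were above both PT arrays. This call held in all 14 alternatives, with adjusted p from 0.000305 to 0.0335. Cdkn1a was 2.42-fold lower in T (-1.27 ± 0.25, adjusted p = 0.0144), a call that ended when T replicate 2 (0.0831) or PT replicate 1 (0.115) was left out, with a range from 0.00116 to 0.115. Cdkn2c was called higher in T (1.17 ± 0.27, adjusted p = 0.0305), with no fold because PT was at background and the T mean lay under the PT limits. That call was lost in 7 of 14 alternatives, among them quantile normalization (limma adjusted p = 0.0692) and the fit of these groups alone (0.0505). Each removal of an array except T replicate 1 also ended it. In both counts of 14, removing either mVec array gives the same fit as T and PT alone, so the alternatives are not all distinct.

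The other 4 inhibitors did not pass between T and PT, although Cdkn2b passed with either filter on low probe sets (limma adjusted p = 0.0428 and 0.0240). Their differences were 0.61 ± 0.20 for Cdkn2b (limma adjusted p = 0.0991, interval at 95% from 0.16 to 1.06), 0.26 ± 0.26 for Cdkn1c (adjusted p = 0.615, interval from -0.32 to 0.84), 0.15 ± 0.24 for Cdkn2d (adjusted p = 0.754, interval from -0.37 to 0.68) and -0.12 ± 0.20 for Cdkn2a (adjusted p = 0.778, interval from -0.58 to 0.34). The intervals are not adjusted for the number of probe sets. Between T and PT, 5.67% of all probe sets were called higher in T and 2.7% lower, 8.36% in either direction.

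The members also differed in how closely the arrays of a line repeated each other. Cdkn2c had the widest gap, 0.77 between the T arrays, followed by Cdkn1b with 0.63 between the PT arrays and Cdkn1c with 0.63 between the mVec arrays. Cdkn2a and Cdkn2b repeated most closely, with gaps of at most 0.21 and 0.17. The falls of Cdkn1b and Cdkn2c against mVec were larger than all of these gaps.

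Fixed lists of cell type markers and of RNA quality and reference genes were read next. The melanocyte list goes against the labelled cell type: of 10 measured markers only Mitf was above background on any array (2 of 6), and Sox10, Tyr, Tyrp1, Dct, Pmel, Mlana, Slc45a2, Ednrb and Kit itself were at background throughout. Of 9 measured fibroblast markers, 7 fell in T and 7 in PT, and 1 rose in each. In each line 1 of these calls was at background in both lines compared. Over all probe sets, 15.5% were called lower and 16.9% higher in T, and 18% and 17.9% in PT. In mVec 6 of the 9 were above background on both arrays. Postn, a matrix protein of fibroblasts, read 5.42 and 6.09 (log2) on the T arrays, 5.85 and 5.35 on the PT arrays, and 15.22 and 15.37 on the mVec arrays. Dcn, the matrix proteoglycan decorin, read 5.79 and 5.12 on the T arrays, 4.99 and 4.85 on the PT arrays, and 14.15 and 13.83 on the mVec arrays. The vector line, against which T and PT are set throughout, was thus bright for these markers while its melanocyte markers were at background, Col1a2, Lum and Thy1 being the fibroblast markers not above background in it. The sum of the fibroblast list's log2 values was 64.8 to 65.5 in T, 58.4 to 60.3 in PT and 104.6 to 104.8 in mVec. All 8 measured keratinocyte markers and all 4 leukocyte markers were at background on every array. The 11 RNA quality and reference genes were Actb, Gapdh, Hprt, Tbp, Ppia, B2m, Fos, Jun, Egr1, Ier2 and Atf3. Of them, 3 rose and 5 fell in T, and 3 rose and 5 fell in PT. Sums over this list were 152.8 to 154.2 for T, 147.4 to 149.95 for PT and 156.8 to 157.5 for mVec. Fos had a mean of 14.18 for mVec, 7.69 for T and 7.04 for PT, whereas Atf3 had 7.84, 12.29 and 12.22. Reference genes differed too. In the same order of lines, Hprt had 13.56, 15.95 and 15.84, and Tbp 12.26, 13.88 and 14.02. Actb had 17.54, 17.20 and 17.23, Gapdh 16.83, 16.81 and 16.45, Ppia 16.27, 16.33 and 15.80, and B2m 18.06, 17.45 and 17.07. These sums are therefore not a measure of RNA quality alone. The part of the fibroblast markers and of the RNA quality genes in the differences of the inhibitors was not tested, and in RNA from whole cultures fewer cells of a type and less RNA per cell cannot be told apart.

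The kinases and cyclins that the inhibitors bind moved mostly upwards. Of 10 measured genes, 6 rose in T and none fell (limma, none at an unadjusted p under 0.05 either), with a median of 0.96. In PT 6 rose and 1 fell, with a median of 1.43, and the rise of Ccne1 was a call at background in both lines compared. Over all probe sets, 16.9% were called higher and 15.5% lower in T, and 17.9% and 18% in PT. The counts of the lists below stand beside the same shares. Cdk1, the mitotic kinase, exceeded its mVec level at least 5.79-fold in T, and the cyclin Ccna2 at least 19.7-fold higher in PT. Cdk2, the partner of the Cip and Kip proteins, did not pass in T (0.62 ± 0.22, limma adjusted p = 0.0540) or in PT (0.33 ± 0.22, adjusted p = 0.303). Cdk4 rose by 0.67 ± 0.20 in T (adjusted p = 0.0284) and differed by 0.31 ± 0.20 in PT (adjusted p = 0.291). Cdk6 differed by 0.27 ± 0.21 in T (adjusted p = 0.400) and rose by 1.35 ± 0.21 in PT (adjusted p = 0.000525), and Ccnd3, a D cyclin, fell by 1.0 ± 0.23 in PT (adjusted p = 0.00655). Ccnd1 was not analysed here.

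Downstream of the kinases, 9 of 11 genes of the Rb family and E2F list rose and 1 fell in T (median 1.28), and 8 rose and 1 fell in PT (median 1.14). These counts include calls at background in both lines compared, 3 in T (E2f1, E2f2 and E2f7) and 2 in PT (E2f2 and E2f7). E2f4, an E2F factor that works with the pocket proteins, was 7.01-fold higher in T and 10.0-fold higher in PT. The pocket protein Rbl2 (p130), typical of resting cells, was the member that fell, 2.04-fold in T and at least 3.15-fold in PT. Rb1 did not pass in T (-0.43 ± 0.20, limma adjusted p = 0.136) or in PT (-0.55 ± 0.20, adjusted p = 0.0553). All 12 measured cell division genes rose in both lines, with medians of 2.79 in T and 3.86 in PT. The proliferation marker Mki67 was 4.47-fold higher in T and 8.13-fold in PT, and Cdc20, which activates the anaphase-promoting complex, at least 2.68-fold and at least 8.17-fold. The part of proliferation in the differences of the inhibitors was not tested.

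The ubiquitin ligases that destroy the p21 and p27 proteins were read because p27 is controlled mainly through its breakdown, which arrays do not see. Of 13 measured genes, 5 rose and 1 fell in T, and 5 rose and 1 fell in PT, with medians of 0.47 and 0.53. Over all probe sets, 16.9% were called higher and 15.5% lower in T, and 17.9% and 18% in PT. Skp2, which recognizes phosphorylated p27, read 13.02 and 12.86 (log2) on the T arrays, 13.18 and 13.20 on the PT arrays, and 10.21 and 9.81 on the mVec arrays. Every Kit array was above both mVec arrays, 7.59-fold on average in T and 9.02-fold in PT. Its cofactor Cks1b was 8.96-fold higher in T (limma adjusted p = 3.1e-06) and 17.3-fold higher in PT (adjusted p = 4.48e-07). The scaffold Cul1 of the same ligase fell by 1.39 ± 0.23 in T and by 1.05 ± 0.23 in PT.

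**Figure D3:**
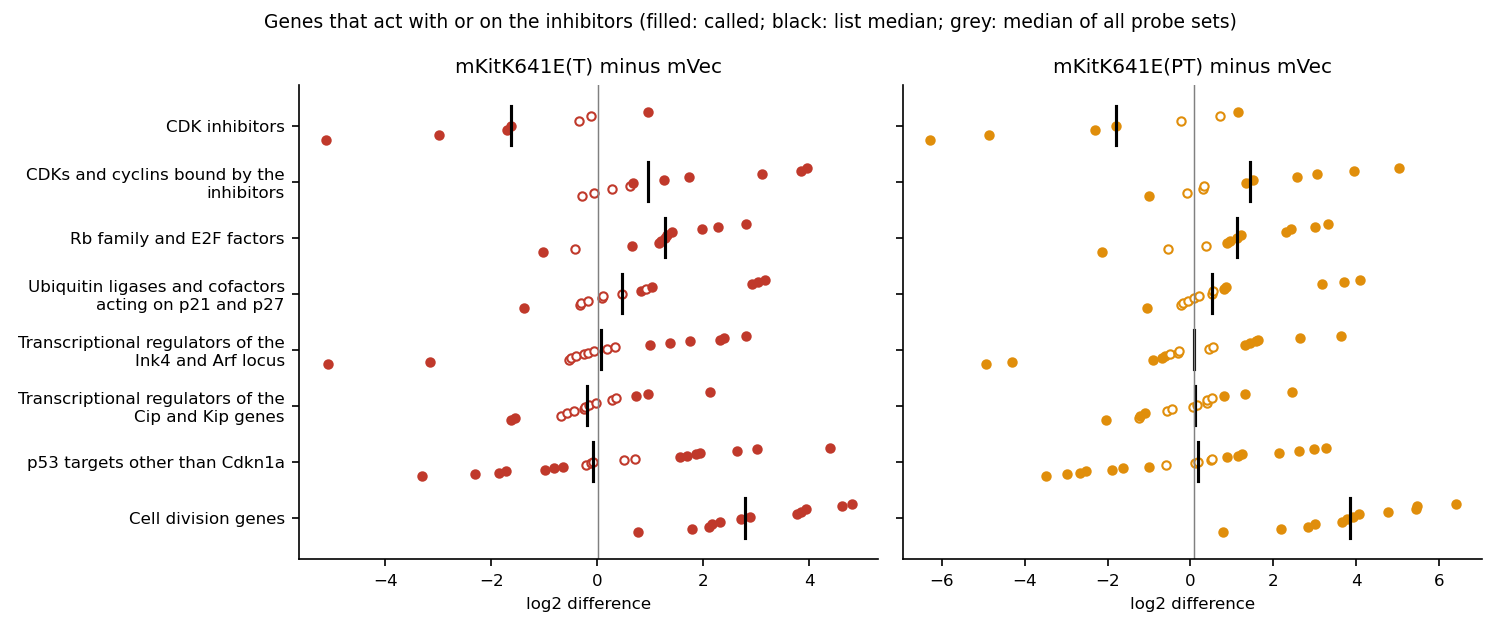
Log2 differences against mVec for the inhibitors and for the genes of 7 lists that act with or on them, in T (left) and PT (right), with filled points for an adjusted p under 0.05, black bars for list medians and a grey line for the median of all probe sets. The inhibitors have medians of -1.63 and -1.79, while the cell division genes lie above 0 in both panels.

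Regulators of the Ink4 and Arf locus moved in both directions. Of 16 measured genes, 6 rose and 2 fell in T, and 6 rose and 5 fell in PT, where centring each array on its median gave 7 higher and 2 lower. At background in both lines compared were 1 of the T calls and 2 of the PT calls. Over all probe sets, 16.9% were called higher and 15.5% lower in T, and 17.9% and 18% in PT. The Polycomb subunit Eed was at least 10.1-fold higher in PT and at least 4.03-fold higher in T. Ets2, a factor known to activate Cdkn2a, was 6.96-fold higher in T and 6.23-fold in PT. Tbx2, a repressor of Cdkn2a and Cdkn1a, was lower by at least 4.15-fold in the T line and by at least 3.66-fold in the PT line.

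Among 14 measured regulators of the Cip and Kip genes, 3 rose and 2 fell in T, and 3 rose and 3 fell in PT, with 2 calls in each line at background in both lines compared. These shares are near those over all probe sets (16.9% higher and 15.5% lower in T, 17.9% and 18% in PT), and 1 instead of 2 fell in T with each array centred on its median. Myc, which represses Cdkn1a and Cdkn2b, was 4.35-fold higher in T and 5.52-fold in PT. Smad3, a transducer of TGF-beta that activates Cdkn2b and Cdkn1a, was 3.10-fold lower in T and 4.09-fold lower in PT. Cdkn2b fell in both lines, whereas Cdkn1a was higher in PT (1.14) and not called in T. The part of Myc, Smad3 and the regulators of the Ink4 and Arf locus in the differences of the inhibitors was not tested. Trp53 was not analysed here. Of 19 measured p53 targets other than Cdkn1a, 7 were called higher and 7 lower in T, and 7 higher and 7 lower in PT, with 3 of the T calls and 2 of the PT calls at background in both lines compared. With each array centred on its median the counts were 9 higher and 5 lower in T, and 9 higher and 7 lower in PT. Eda2r, a death receptor induced by p53, was at least 3.40-fold higher in T, Zmat3, a p53-induced zinc finger protein, at least 5.83-fold higher in PT, and Sesn1, a sestrin, lower by at least 4.32-fold in the T line and by at least 3.81-fold in the PT line.

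Between T and PT, fewer of these genes were called. Those lower in T included the cyclin Ccnb2 (-1.32 ± 0.20), the pocket protein Rbl1 (-1.0 ± 0.20), Cks1b (-0.95 ± 0.22), Eed (-1.32 ± 0.22), Smad4 (-0.84 ± 0.22) and the topoisomerase Top2a (-1.68 ± 0.30), all with limma adjusted p under the threshold of 0.05. Those higher in T included Rbl2 (1.12 ± 0.20), Cops5 (0.94 ± 0.21), which exports p27 from the nucleus, Id1 (1.15 ± 0.28), a repressor of Cdkn2a that was 8.97-fold lower in T and 19.9-fold lower in PT than in mVec, and the p53 target Ccng1 (1.66 ± 0.23). The cell division list had 4 of 12 genes lower in T and none higher (limma, none at an unadjusted p under 0.05 either), with a median of -0.90. Over all probe sets, 2.7% were called lower in T and 5.67% higher. Skp2 (-0.25 ± 0.22, adjusted p = 0.559), Myc (-0.34 ± 0.21, adjusted p = 0.387) and Mki67 (-0.86 ± 0.25, adjusted p = 0.0679) did not pass.

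The neighbours of each inhibitor on its chromosome were compared with it, using the order of measured protein-coding genes in RefSeq. Mtap, next to Cdkn2a on chromosome 4 and often lost together with it in tumours, was bright in all lines, with a T mean of 14.69, a PT mean of 14.80 and an mVec mean of 15.07, and did not pass the test against mVec (-0.38 ± 0.21 in T and -0.27 ± 0.21 in PT). In gene order Cdkn2b, which fell, lies between Cdkn2a and Dmrta1, and Dmrta1 was at background in all groups. Faf1, beside Cdkn2c, rose in T (0.72 ± 0.20, limma adjusted p = 0.0215) and likewise in PT (0.78 ± 0.20, adjusted p = 0.0128), while Cdkn2c fell. Rnf11, on the other side of Cdkn2c, rose in PT (0.76 ± 0.21, limma adjusted p = 0.0158) and did not pass in T (0.51 ± 0.21, adjusted p = 0.0969). Ddx47, near Cdkn1b on chromosome 6, rose by 0.75 ± 0.24 in T and by 0.82 ± 0.24 in PT, and the nearer Gpr19 and Apold1 were at background in all groups.

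Cdkn1a on chromosome 17 lies next to the splicing factor gene Srsf3, which was 2.18-fold higher in T and 2.42-fold higher in PT than in mVec. Ppil1, on the other side, was at background in T and mVec. It was called higher than mVec in T (1.95 ± 0.21) and in PT (3.23 ± 0.21, at least 1.33-fold). Between the Kit lines Ppil1 was lower in T (-1.28 ± 0.21, limma adjusted p = 0.00745). Stk38 was not called in either line against mVec, and Cpne5 was at background in all groups. Around Cdkn1c on chromosome 7, the imprinted growth inhibitor Phlda2 was at background in mVec and at least 8.54-fold higher in T and at least 13.7-fold higher in PT. Slc22a18, which lies between these genes in the order of measured genes, was at background in all groups and called lower in T (-2.30 ± 0.36) and PT (-1.56 ± 0.36). Slc44a2, near Cdkn2d on chromosome 9, was 2.41-fold lower in T and 2.16-fold lower in PT.

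**Figure D4:**
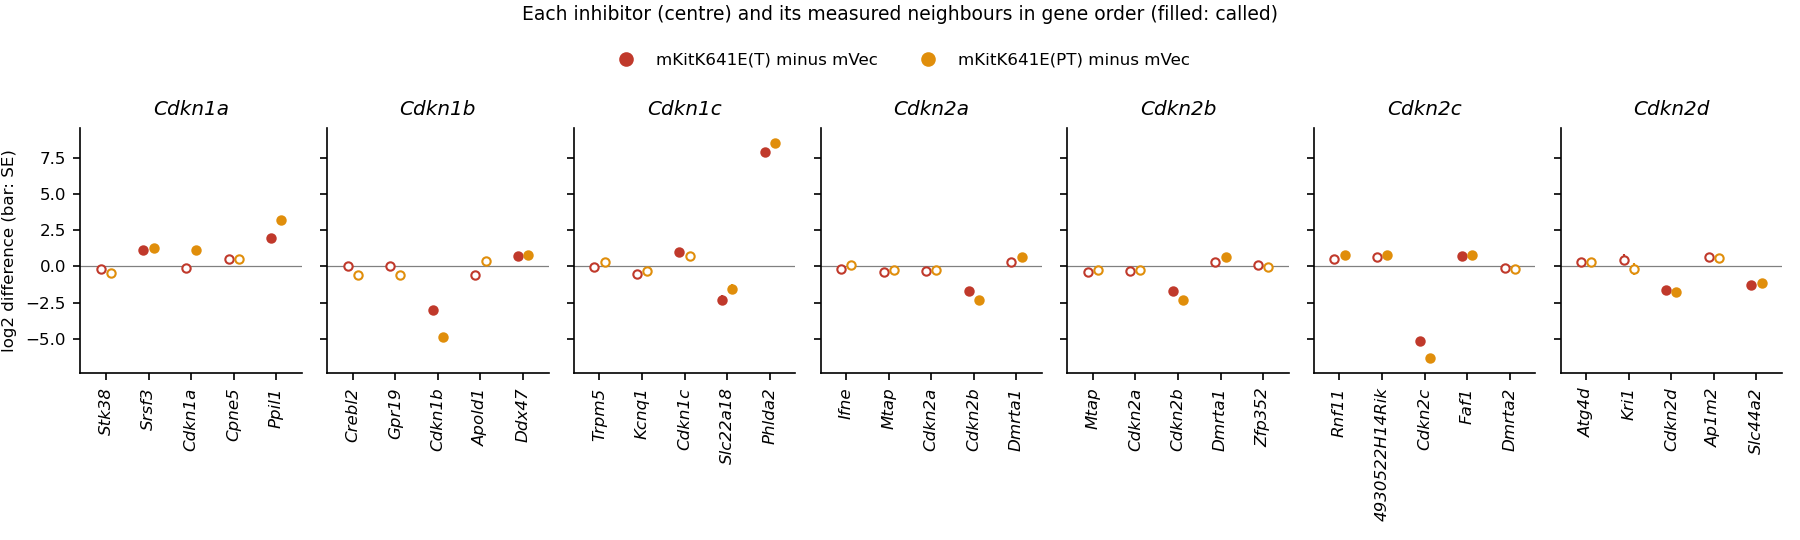
Log2 differences against mVec for each inhibitor (centre of its panel) and its 2 nearest measured protein-coding neighbours on each side in gene order, in T and PT, with bars for the standard error and filled points for an adjusted p under 0.05. Cdkn1b and Cdkn2c lie far below their neighbours, and Phlda2 is the highest point, at 7.86 in T and 8.54 in PT.

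Genes with the most similar pattern over the 6 arrays were found for the 4 inhibitors that were called and above background in some group, among 7123 candidate genes, by the root mean square difference of centred log2 values. Closest to Cdkn2c were the matrix protein gene Matn2 (0.18), the Notch target Hes1 (0.19) and Trim12c (0.20). Hes1 had means of 6.84 in T, 5.75 in PT and 11.83 in mVec. Closest to Cdkn1b were Arhgef25 (0.07), the selenoprotein gene Selenom (0.17) and Cemip2, a hyaluronidase (0.18). Arhgef25 had means of 8.82 in T, 6.89 in PT and 11.81 in mVec, the same order of lines as Cdkn1b. Closest to Cdkn2b were the transcription factor Sox4 (0.06), the fucosyltransferase Fut8 (0.07) and the ciliary gene Tmem67 (0.07). Closest to Cdkn1a were Mtss1 (0.15), Sestd1 (0.16) and the cohesin subunit Smc1a (0.17), which had means of 14.05 in T, 15.15 in PT and 13.97 in mVec. These likenesses rest on 3 lines and describe these arrays alone.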

How the data were processed

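Total RNA of 3 mouse lines was measured on 6 Affymetrix Clariom S arrays, 2 for each line, after RNeasy extraction and biotin labelling, per the labels' protocols. The authors deposited log2 values for every probe set on every array, in 1 table of 28846 rows. The unit was read from the values, and no source used here names the software, background correction or normalization. The 22206 gene probe sets were tested and 6640 control rows left out. Genes were named by the platform annotation (19572 probe sets with 1 symbol), and of 146 listed genes beside the members 136 were measured.

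All arrays entered 1 linear model in limma 3.58.1 (R 4.3.3) with a mean per line, 3 residual and 6.36 prior degrees of freedom, no filter and no block. P-values are two-sided, Benjamini-Hochberg adjusted over all gene probe sets within a comparison, and called under 0.05. The script was tested on simulated data. No files give counts, so depth does not apply, and the number of arrays limits the precision.

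The members and lists were chosen with earlier results of these data known. Named beside the members were, per list and comparison, the called genes with the largest rise and fall, 8 fixed genes (of which Trp53 and Ccnd1 are not analysed here), the 3 genes nearest in pattern and the 2 measured neighbours on each side. A gene named in 1 comparison may be given in another. Alternatives changed the scaling, the filter, the moderation, the samples fitted and the background limit.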

Additional observations from a re-analysis of the deposited data

Results flagged for a closer look

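For 3 inhibitors the effects of the Kit lines against mVec differed by the test of the difference itself, which is the limma contrast of T with PT. For Cdkn1a the effect of T minus that of PT was -1.27, since it was higher than mVec in PT (1.14) and not called in T (-0.13). For Cdkn1b the difference was 1.86, since the fall was smaller in T (-3.0) than in PT (-4.85). For Cdkn2c it was 1.17, with values of -5.13 in T and -6.30 in PT. This is the call that fewest alternatives kept (7 of 14, not all of them distinct fits). The groups of 2 arrays are too small for a check of single outlying arrays.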

How the results depend on the processing

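The falls of Cdkn1b, Cdkn2b, Cdkn2c and Cdkn2d in T and PT kept their direction and their call in every alternative in which the gene was tested. Cdkn2d was not tested with the filter for probe sets above background on both arrays of at least 1 group. With that filter 3 instead of 4 inhibitors were called lower in T and in PT. Of 285 member values under the alternatives, 265 kept direction and call, 12 lost the call, 4 gained it and 4 changed sign. These values are not all distinct. For each comparison, leaving out either array of the line not compared gives the same fit as the compared groups alone. The sign changes were in differences that had not passed: Cdkn1a in T against mVec was 0.055 with each array centred on its median and -0.39 to 0.13 with 1 array left out, and Cdkn2d in T against PT was -0.056 after quantile normalization and -0.080 to 0.39 with 1 array left out. The count of inhibitors called higher in T than in mVec was 0 instead of 1 with either filter on low probe sets, since these leave Cdkn1c out, and 0 to 1 with 1 array left out. In PT that count was 2 instead of 1 after median centring, where Cdkn1c passed (limma adjusted p = 0.0174). Between T and PT, the inhibitors called higher in T were 1 instead of 2 after quantile normalization and in the fit of these groups alone, 3 with either filter on low probe sets, where Cdkn2b passed, and 1 to 2 with 1 array left out, and those called lower were 0 to 1, as Cdkn1a was lost in the cases named above. The replicate block, used although equal numbers did not deviate together (r = 0.08, 0.04 and 0.04 across genes, from 2 numbers), changed no call of a member, with 4 lower and 1 higher in T, 4 lower and 1 higher in PT, and 2 higher and 1 lower between T and PT. With the block, cell division genes called lower in T than in PT were 7 instead of 4, and ubiquitin ligase genes 2 instead of 1. Over all probe sets, those called between T and PT were 1258 higher and 599 lower in T, against 454 and 205 without T replicate 2, 370 and 179 without PT replicate 1, and 625 and 176 without PT replicate 2. With each array centred on its median, Cip and Kip regulators called lower in T than in mVec were 1 instead of 2, and Ink4 and Arf regulators called lower in PT were 2 instead of 5. Averaging the probe sets of a gene was not run, since each member has 1. Leaving out 1 array leaves a line with 1 array, which is then assumed to vary like the others. Signals near the background limit leave only bounds for the falls of Cdkn2b and Cdkn2c in PT, and the folds of these genes in T, and of Cdkn1b in PT, rest on a line with 1 of 2 arrays above it.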
